A study of Homo sapiens with 24 samples.

Results

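The integrated stress response and the unfolded protein response were followed through 8 genes, ATF4, DDIT3, ATF3, TRIB3, ASNS, CHAC1, HSPA5 and XBP1. An array feature was taken for a gene where its RefSeq accession mapped to that gene. This gave 12 features for the 8 genes at each time point, out of 50599 features at 24 h and 58201 at 48 h. ATF3 had 4 features, CHAC1 had 2 and each other gene had 1. All 8 genes could be tested, among 36605 genes at 24 h and 37444 at 48 h.

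The samples were LNCaP cells, an established line of prostate cancer cells. They were electroporated with si-A1, which targets the long non-coding RNA TAPIR-1, with si-A2, which targets the lncRNA TAPIR-2, or with a scrambled siRNA as control (scramble), and total RNA was taken after 24 h or 48 h from 4 biological replicates of each of these 6 groups. Each lncRNA was targeted by 1 siRNA, and all groups, scramble included, went through the same transfection, so no group shows untransfected cells. Each RNA was hybridised to its own one-colour array, and the 48 h arrays were of a later version than the 24 h arrays, so that time point and array version cannot be told apart and levels are compared only within a time point.

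In the integrated stress response, kinases that sense amino acid shortage, double-stranded RNA, heme loss or unfolded proteins in the endoplasmic reticulum (ER) phosphorylate the translation factor eIF2alpha. General translation then slows, while the mRNA of the transcription factor ATF4 is translated better, and ATF4 induces genes for amino acid supply, redox balance and, under lasting stress, cell death. The unfolded protein response adds the ER sensors IRE1 and ATF6, through which XBP1 and ATF6 induce chaperones such as HSPA5. Secretory epithelia such as the prostate carry a high load of protein folding in the ER.

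Of the 15 promoter entries that the RefSeq table (build GRCh38.p14) holds for the 8 genes, 5 contained in the 250 bases before the start a match to 1 of 5 stress response motifs, and these are shown because such elements are the textbook link between these genes and the stress pathways. Both strands were searched. The CCAAT enhancer binding protein and ATF response element (CARE, the ATF4 type of site) was searched as TGATGNAA, the ER stress response element (ERSE, the ATF6 type) as CCAAT, 9 bases and CCACG, ERSE-II as ATTGG, 1 base and CCACG, the cyclic AMP response element as TGACGTCA and the XBP1 type of element as TGACGTGG. Capitals mark the match, and each line runs 5′ to 3′ on the strand of the gene.
ASNS, chr7:97872409-97872658, minus strand, CARE: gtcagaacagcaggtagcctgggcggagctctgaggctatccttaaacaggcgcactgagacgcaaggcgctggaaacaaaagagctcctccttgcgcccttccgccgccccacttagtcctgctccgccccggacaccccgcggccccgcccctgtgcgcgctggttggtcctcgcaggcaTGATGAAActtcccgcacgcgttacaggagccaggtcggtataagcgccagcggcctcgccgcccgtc
CHAC1, chr15:40953221-40953470, plus strand, CARE on the other strand: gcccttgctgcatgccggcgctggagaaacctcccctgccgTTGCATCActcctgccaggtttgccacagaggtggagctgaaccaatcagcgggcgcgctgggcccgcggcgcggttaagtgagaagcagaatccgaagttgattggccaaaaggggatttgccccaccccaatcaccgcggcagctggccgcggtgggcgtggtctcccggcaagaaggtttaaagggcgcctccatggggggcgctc
ATF3, chr1:212565157-212565406, plus strand, CARE: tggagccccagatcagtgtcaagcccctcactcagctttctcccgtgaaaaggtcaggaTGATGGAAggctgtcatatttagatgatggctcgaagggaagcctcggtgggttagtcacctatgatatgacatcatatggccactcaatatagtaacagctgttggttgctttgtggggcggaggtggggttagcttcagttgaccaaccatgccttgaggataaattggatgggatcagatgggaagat
HSPA5, chr9:125241344-125241593, minus strand, ERSE: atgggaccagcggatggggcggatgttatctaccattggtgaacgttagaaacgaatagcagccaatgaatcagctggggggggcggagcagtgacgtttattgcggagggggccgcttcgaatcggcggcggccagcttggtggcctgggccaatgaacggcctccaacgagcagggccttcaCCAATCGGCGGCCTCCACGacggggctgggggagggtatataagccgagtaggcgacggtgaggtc
XBP1, chr22:28800570-28800819, minus strand, ERSE: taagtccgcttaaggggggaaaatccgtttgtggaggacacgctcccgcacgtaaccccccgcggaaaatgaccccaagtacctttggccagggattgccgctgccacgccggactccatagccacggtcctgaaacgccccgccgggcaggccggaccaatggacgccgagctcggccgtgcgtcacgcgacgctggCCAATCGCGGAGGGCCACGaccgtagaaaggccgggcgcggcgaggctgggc

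A CARE match was present in the promoters of ASNS, CHAC1 and ATF3, and in those of 3.89% of the 27305 genes in the table (3.14% of its 35116 promoters). An ERSE match was present in those of HSPA5 and XBP1, and in those of 0.0916% of all genes (0.074% of all promoters). No member promoter held a match to ERSE-II, the cyclic AMP response element or the XBP1 type of element, which occurred in 0.0513%, 1.65% and 0.612% of all promoters. The genes without a match in this window were ATF4 (chr22:39520559-39522686), DDIT3 (chr12:57516588-57520517) and TRIB3 (chr20:380760-397559). A match of letters is a description of the sequence and not evidence of a bound factor in these cells.

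The processed intensity of a spot is its brightness after background subtraction, and its median over an array lay between 24.4 and 57.2 on the 12 arrays at 24 h and between 20.4 and 32.2 on the 11 arrays used at 48 h. The si-A2 replicate 2 array at 48 h was left out because it was dim, with a median of 13.9 and a bright corner control at 5032 against 386747 to 491967 on the others. The 5 luminal prostate markers KLK3, KLK2, TMPRSS2, KRT8 and KRT18 were well above background on every array used. Of the basal markers, KRT5 was so on none, and TP63 on 7 of 12 arrays at 24 h and 1 of 11 at 48 h. Of the fibroblast markers, COL1A2 was so on no array, COL1A1 on 3 of 12 and 0 of 11, and DCN on 2 of 12 and 11 of 11. The features of the 3 leukocyte markers were well above background on every array, with a summed log2 intensity of 8.39 to 9.47 in scramble, 9.17 to 9.69 in si-A1 and 9.27 to 9.55 in si-A2 at 24 h, and of 9.39 to 9.93, 9.85 to 10.05 and 9.74 to 9.95 in these groups at 48 h. At 48 h, where the called member lies, the summed log2 intensity of the 5 luminal markers was lower on every si-A1 array (14.51 to 14.68) than on every scramble (14.73 to 15.31) or si-A2 array (14.73 to 14.90). That of the 3 fibroblast markers was higher in si-A1 (4.75 to 5.0) and si-A2 (4.74 to 5.40) than in scramble (4.34 to 4.56). The part of these markers in the results was not tested, nor was how well the leukocyte features read their transcripts in this cell line. A probe for TAPIR-1 was not analysed here. The TAPIR-2 feature was dim and its log2 intensity at 24 h was 5.04 ± 0.20 in scramble, 4.64 ± 0.32 in si-A1 and 4.06 ± 0.74 in si-A2 (SD, n = 4 each), a difference of -0.98 for si-A2 that did not pass the test (adjusted p = 0.23), and at 48 h it was 4.64 ± 0.58 in scramble and 4.68 ± 0.90 in si-A2 (SD, n = 4 and 3). A further TAPIR-2 feature, present at 48 h alone, stayed near background on all 11 arrays.

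The values below are log2 intensities, brought to a common distribution by quantile normalization within each time point and given in the order of replicates 1 to 4. A difference between groups is a log2 fold change from a limma fit with the slide as a term, with its standard error (SE), and a call required both an adjusted p under 0.01 and a size of 0.5 or more in either direction. A bulk array cannot tell fewer cells with a transcript from less RNA per cell.

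**Figure D1:**
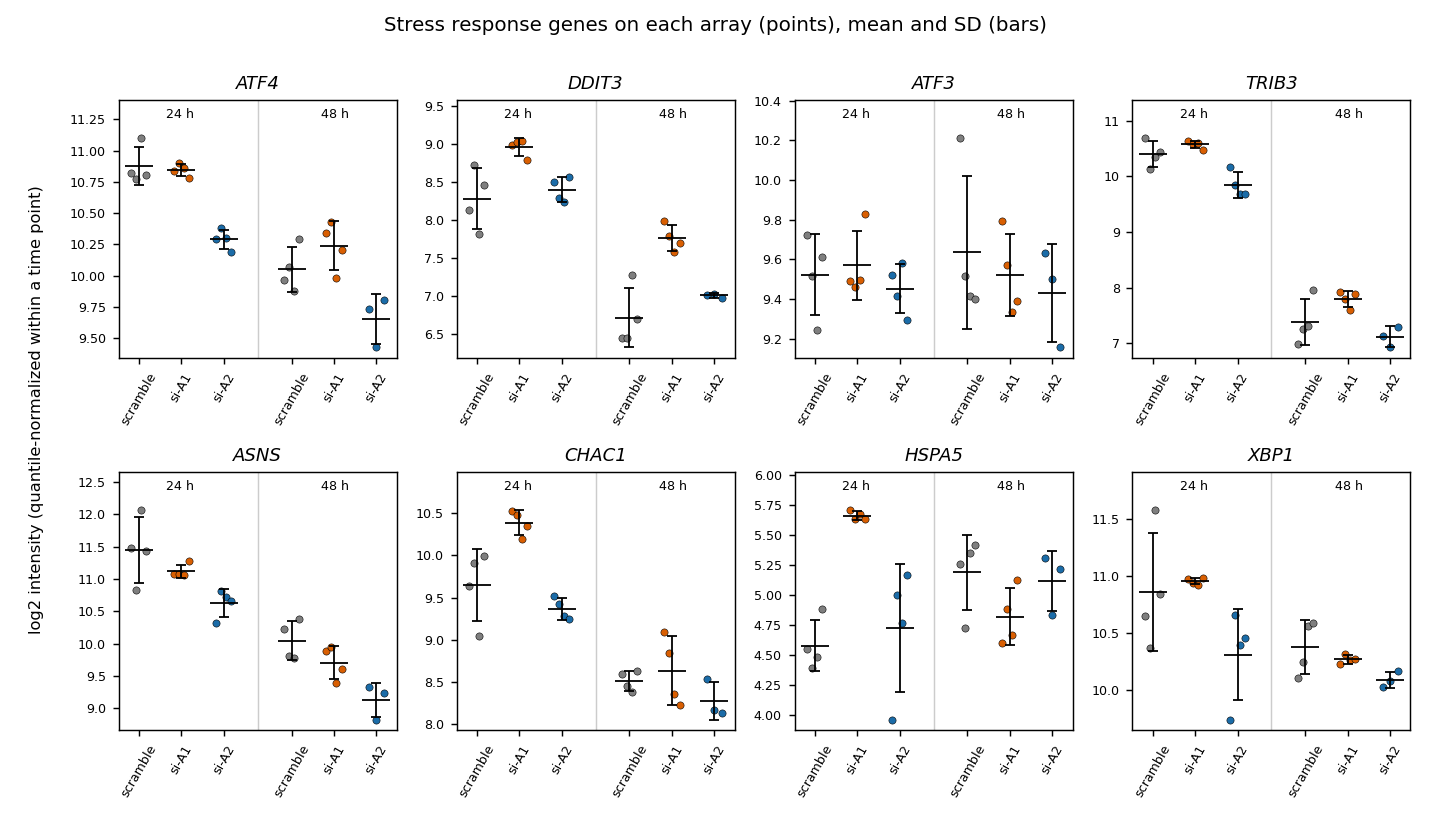
Log2 intensity (vertical axis, own scale in each panel) of the brightest feature of each of the 8 stress response genes on each array, by siRNA, at 24 h and 48 h. Points are arrays, horizontal lines are group means and bars are SDs over 4 arrays, or 3 for si-A2 at 48 h, and the si-A2 points of ATF4 and ASNS lie below all scramble and si-A1 points at both time points.

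ATF4 is the transcription factor through which the eIF2alpha kinases act on genes. At 24 h its log2 intensity was 10.82, 10.78, 11.10 and 10.81 in scramble, 10.84, 10.90, 10.86 and 10.78 in si-A1, and 10.29, 10.38, 10.30 and 10.19 in si-A2. Every si-A2 array thus lay below every other array, while scramble and si-A1 overlapped. The difference of si-A2 from scramble was -0.59 (SE 0.12) with an adjusted p of 0.037 that missed the threshold of 0.01. Against si-A1 it was -0.56 (SE 0.12, adjusted p = 0.060), and between si-A1 and scramble it was -0.03 (SE 0.12). At 48 h the values were 9.97, 10.07, 9.87 and 10.29 in scramble, 10.34, 10.43, 9.98 and 10.20 in si-A1, and 9.73, 9.43 and 9.81 in si-A2, again with every si-A2 array the lowest. The difference of si-A2 was then -0.38 (SE 0.15, adjusted p = 0.24) from scramble and -0.57 (SE 0.15, adjusted p = 0.071) from si-A1.

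DDIT3 encodes CHOP, a transcription factor that ATF4 induces and that promotes cell death under lasting ER stress. It was the only one of the 8 genes to be called in any comparison, and it rose after si-A1 at 48 h. The values at 48 h were 6.45, 6.45, 7.28 and 6.70 in scramble, 7.98, 7.80, 7.58 and 7.70 in si-A1, and 7.02, 7.03 and 6.98 in si-A2. All si-A1 arrays lay above all others, and si-A2 lay within the range of scramble. The rise over scramble was 1.05 (SE 0.18), which is 2.06-fold, with an adjusted p of 0.0063. On the first slide it was 1.44 and on the second 0.65. The call was close to the threshold. It was lost with the replicate number as a block in place of the slide (1.05, adjusted p = 0.0175), and with the dim array kept in the fit the rise was 1.04 with an SE of 0.65 and an adjusted p of 1. When 1 array was left out, the call held without scramble replicate 3 (1.24, adjusted p = 0.00082) or si-A2 replicate 4, and was lost without any of the other 9 arrays, where the rise was 0.95 to 1.13 and the adjusted p 0.0101 to 0.0235.

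At 24 h, DDIT3 was at 8.13, 8.73, 7.82 and 8.46 in scramble, at 8.99, 9.03, 9.04 and 8.79 in si-A1, and at 8.51, 8.29, 8.24 and 8.57 in si-A2. The si-A1 arrays were again all above the others, by a narrow margin over scramble replicate 2. The difference of si-A1 from scramble was 0.68 (SE 0.19, adjusted p = 0.12) and did not pass. The change of this effect from 24 h to 48 h, tested over the 23 arrays normalized together, was 0.41 (95% CI -0.14 to 0.97, adjusted p = 0.54). The si-A2 arrays lay below all si-A1 arrays at both time points, by -0.56 (SE 0.19, adjusted p = 0.26) at 24 h and -0.77 (SE 0.20, adjusted p = 0.065) at 48 h.

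ATF3, a transcription factor of the same family that is induced by ATF4 and by many other stresses, gave different readings on its 4 features. The brightest feature, which was not the same one at both time points, read 9.24 to 9.83 over all arrays at 24 h and 9.16 to 10.21 at 48 h, and all groups overlapped. Its differences were between -0.15 and 0.05 over the 6 comparisons within a time point. At 48 h the 2 dimmest features were higher in si-A1 than in scramble, at 0.51 (SE 0.13, adjusted p = 0.028) and 0.38 (SE 0.10, adjusted p = 0.030), and the brightest read -0.11 (SE 0.15). At 24 h those 2 features were lower in si-A2 than in scramble, by -0.54 (SE 0.18, adjusted p = 0.23) and -0.52 (SE 0.14, adjusted p = 0.13), with every si-A2 array (7.37 to 7.81 and 6.86 to 7.41) below every scramble array (7.84 to 8.80 and 7.44 to 7.68). At 48 h the same 2 features were higher in si-A2 than in scramble, by 0.37 (SE 0.14, adjusted p = 0.21) and 0.29 (SE 0.11, adjusted p = 0.20). None of these passed the threshold.

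TRIB3, a pseudokinase that ATF4 and CHOP induce and that dampens ATF4, was at 10.69, 10.14, 10.34 and 10.43 in scramble, 10.64, 10.58, 10.60 and 10.48 in si-A1, and 10.16, 9.85, 9.68 and 9.69 in si-A2 at 24 h. The si-A2 arrays were below all si-A1 arrays, and replicate 1 of si-A2 reached into the scramble range. The difference of si-A2 from si-A1 was -0.73 (SE 0.15, adjusted p = 0.048). It was -0.55 from scramble (SE 0.15, adjusted p = 0.13). At 48 h the values were 7.0, 7.27, 7.32 and 7.96 in scramble, 7.92, 7.80, 7.60 and 7.88 in si-A1, and 7.14, 6.93 and 7.30 in si-A2. The gap between si-A2 and si-A1 was of similar size, -0.70 (SE 0.21, adjusted p = 0.11), and scramble replicate 4 lay as high as the si-A1 arrays.

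ASNS makes asparagine and is a classic target of ATF4 in amino acid shortage. At 24 h it was at 11.47, 10.82, 12.06 and 11.43 in scramble, 11.08, 11.07, 11.06 and 11.28 in si-A1, and 10.32, 10.82, 10.73 and 10.66 in si-A2. The si-A2 arrays lay below all others, though the highest of them was within 0.01 of scramble replicate 2. The difference from scramble was -0.82 (SE 0.21, adjusted p = 0.10), a level 1.76-fold lower. At 48 h the values were 10.23, 9.82, 9.77 and 10.38 in scramble, 9.88, 9.95, 9.40 and 9.60 in si-A1, and 9.33, 8.83 and 9.24 in si-A2. All si-A2 arrays were again the lowest, with a difference of -0.88 (SE 0.19, adjusted p = 0.051) from scramble and -0.54 (SE 0.19, adjusted p = 0.17) from si-A1. The si-A1 arrays did not separate from scramble at either time point, with differences of -0.33 (SE 0.21) and -0.34 (SE 0.18).

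CHAC1 degrades glutathione and is induced by ATF4, ATF3 and CHOP. At 24 h its brighter feature read 9.64, 9.91, 9.05 and 9.99 in scramble, 10.53, 10.47, 10.19 and 10.35 in si-A1, and 9.52, 9.42, 9.28 and 9.24 in si-A2. The si-A1 arrays lay above all others. The difference of si-A2 from si-A1 was -1.02 (SE 0.18, adjusted p = 0.027), a level 2.03-fold lower, and without scramble replicate 3, the lowest scramble array, it was -1.02 with an adjusted p of 0.0040. Between si-A1 and scramble it was 0.74 (SE 0.18, adjusted p = 0.080). At 48 h the groups overlapped on this feature, at 8.60, 8.45, 8.38 and 8.63 in scramble, 9.10, 8.85, 8.36 and 8.23 in si-A1, and 8.53, 8.17 and 8.13 in si-A2. The dimmer feature of CHAC1 gave -1.25 (SE 0.35, adjusted p = 0.14) at 24 h and -0.90 (SE 0.29, adjusted p = 0.13) at 48 h for si-A2 against si-A1. At 24 h it read 7.10 to 7.88 in scramble, 7.30 to 8.25 in si-A1 and 5.69 to 7.53 in si-A2, and all groups overlapped. At 48 h its si-A2 arrays (5.45 to 6.29) lay below all its si-A1 arrays (6.57 to 7.19).

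HSPA5 encodes BiP, the main chaperone of the ER lumen. BiP mRNA is usually abundant, but its only feature here was dim, and how well this feature reads the transcript was not tested. It was not well above background on 2 arrays at 24 h, scramble replicate 3 and si-A2 replicate 1. The values at 24 h were 4.55, 4.39, 4.48 and 4.88 in scramble, 5.71, 5.63, 5.67 and 5.63 in si-A1, and 3.96, 4.99, 4.77 and 5.16 in si-A2. The si-A1 arrays lay above all others and varied little. Their difference from scramble was 1.08 (SE 0.22, adjusted p = 0.032), which is 2.12-fold and missed the threshold. It was 1.09 with an adjusted p of 0.0051 when si-A2 replicate 1 was left out, and 0.40 from median spot signals, with normexp in place of Agilent's background correction or with none (SE 0.07 in both). The processed signal and the median signal differ in more than the background step, and there the adjusted p of 0.0094 and 0.0087 passed and the size did not. At 48 h the order was not kept, with 5.26, 4.73, 5.35 and 5.41 in scramble, 4.60, 4.88, 4.66 and 5.12 in si-A1, and 5.31, 4.84 and 5.21 in si-A2. All groups overlapped there, and the difference of si-A1 from scramble was -0.37 (SE 0.19, adjusted p = 0.24). The change of the si-A1 effect from 24 h to 48 h was -1.50 (95% CI -2.16 to -0.84, adjusted p = 0.033), short of the threshold of 0.01.

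XBP1 encodes the transcription factor whose mRNA is spliced by IRE1. The array feature, averaged over its 10 spots, gives 1 level for the gene, and splicing was not tested. At 24 h it read 10.65, 10.37, 11.58 and 10.84 in scramble, 10.97, 10.94, 10.92 and 10.98 in si-A1, and 9.74, 10.65, 10.39 and 10.45 in si-A2. The si-A1 arrays were within 0.07 of each other and above all si-A2 arrays, and scramble overlapped both. At 48 h it read 10.11, 10.24, 10.56 and 10.59 in scramble, 10.22, 10.32, 10.26 and 10.27 in si-A1, and 10.02, 10.08 and 10.17 in si-A2. The si-A2 arrays were again below all si-A1 arrays, by -0.64 (SE 0.24, adjusted p = 0.32) at 24 h and -0.21 (SE 0.11, adjusted p = 0.38) at 48 h.

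Scramble replicate 3 at 24 h was the highest scramble array for ATF4, ASNS and XBP1 and the lowest for DDIT3, ATF3 and CHAC1. It was also the dimmest array at that time point, with a median intensity of 24.4. Without it, the difference of si-A2 from scramble at 24 h was -0.51 (SE 0.10, adjusted p = 0.036) for ATF4 and -0.64 (SE 0.18, adjusted p = 0.16) for ASNS, and that of si-A1 was 0.53 (SE 0.17, adjusted p = 0.20) for DDIT3 and 0.56 (SE 0.13, adjusted p = 0.085) for CHAC1.

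**Figure D2:**
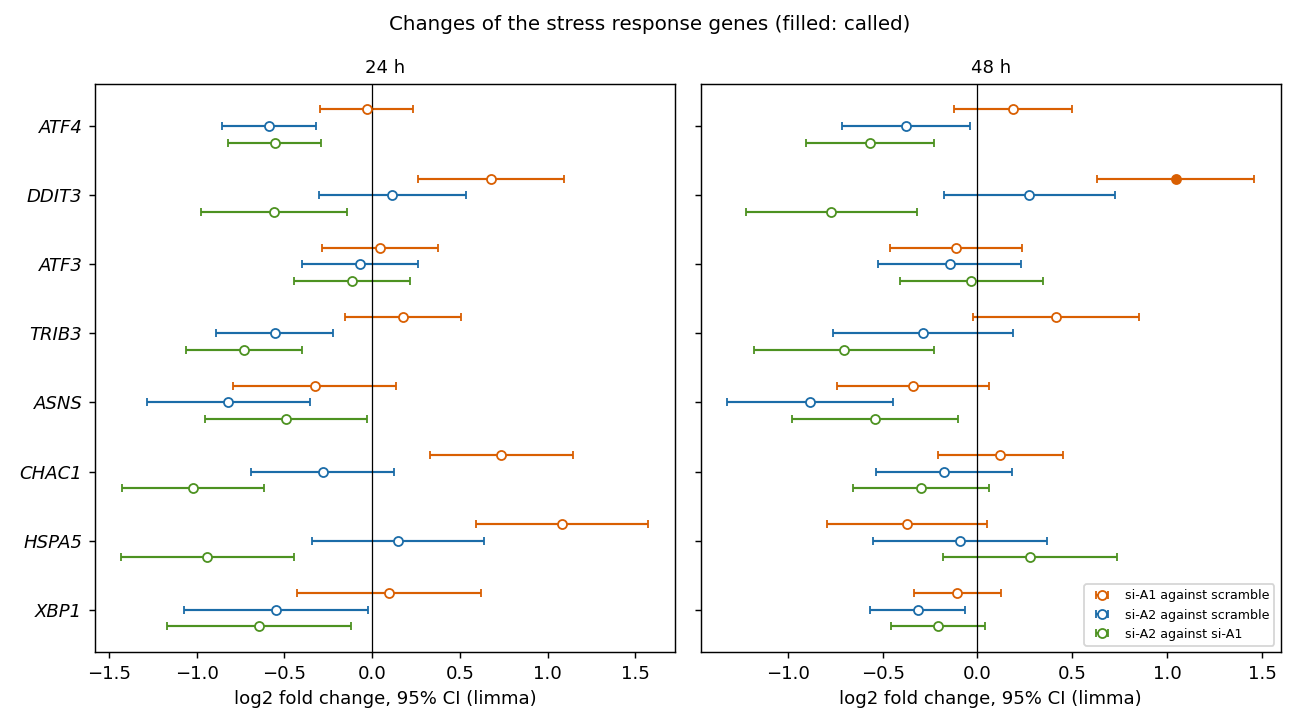
Log2 fold change (horizontal axis) of the 8 stress response genes in the 3 comparisons at 24 h (left) and 48 h (right), with 95% confidence intervals from limma. A filled point is a called gene, and the single filled point is DDIT3 for si-A1 against scramble at 48 h at 1.05.

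Taken by comparison, the first question was whether either knockdown moved the stress response genes against the scrambled control. The counts by comparison read each gene on its brightest feature. After si-A1 at 24 h, 6 of the 8 genes were higher than in scramble and 2 lower, where 56.9% of all genes were higher. The median difference of the 8 genes was 0.13 against 0.05 over all genes tested. No member was called by limma, where 1.03% of all genes were, and 3 had an unadjusted p below 0.05, against 12.4% of all genes. For DDIT3, CHAC1 and HSPA5 every si-A1 array lay above every scramble array on the brightest feature, which held for 3.77% of all genes. On the dimmer feature of CHAC1 these groups overlapped. After si-A1 at 48 h, DDIT3 was the 1 member called, where 5.87% of all genes were called and 2.19% were called higher. It was also the only member with every si-A1 array above every scramble array, as for 6.67% of all genes. On the brightest features, it was the only one with an unadjusted p below 0.05, against 28.3% of all genes. The 2 dimmest features of ATF3 gave 0.51 and 0.38, with an unadjusted p of 0.0033 and 0.0035 by limma. The median difference of the 8 genes was 0.01 against 0.05 over all genes.

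After si-A2 at 24 h, 6 of the 8 genes were lower than in scramble, as were 43.1% of all genes. The median difference of the 8 genes was -0.42 against 0.05 over all genes. None was called, where 0.902% of all genes were, and 4 had an unadjusted p below 0.05, against 11.1%. For ATF4 and ASNS every si-A2 array lay below every scramble array, as for 4.16% of all genes. At 48 h, 7 of the 8 genes were lower, as were 48.2% of all genes, with a median of -0.23 against 0.01. None was called, where 0.441% of all genes were, and 3 had an unadjusted p below 0.05, against 17.4%. ATF4 and ASNS were again the members whose si-A2 arrays lay below every scramble array, as for 6.79% of all genes.

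The second question was whether the 2 knockdowns differed from each other. Since both are set against the same scramble arrays, their own difference was tested directly. At 24 h all 8 genes were lower in si-A2 than in si-A1, from -0.12 for ATF3 to -1.02 for CHAC1, with a median of -0.60 against -0.01 over all genes, of which 52.3% were lower. None was called, where 0.309% of all genes were. An unadjusted p below 0.05 was found for 7 of the 8 genes and for 10.7% of all genes, and an adjusted p below 0.05 for CHAC1 and TRIB3. The same 7 genes, all but ATF3, had every si-A2 array below every si-A1 array on the brightest feature, which held for 4.73% of all genes. On the dimmer feature of CHAC1 these groups overlapped.

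At 48 h, 7 of the 8 genes were lower in si-A2 than in si-A1 and HSPA5 was higher, at 0.28 (SE 0.20, adjusted p = 0.54). The median was -0.42 against -0.04 over all genes, of which 55.8% were lower. None was called, where 1.38% of all genes were, and 4 had an unadjusted p below 0.05, against 18.2%. For ATF4, DDIT3, TRIB3, ASNS and XBP1 every si-A2 array lay below every si-A1 array, as for 6.66% of all genes. Within each slide, all 8 genes were lower in si-A2 than in si-A1 on both slides at 24 h, and 7 of 8 were on both slides at 48 h, HSPA5 being the exception.

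**Figure D3:**
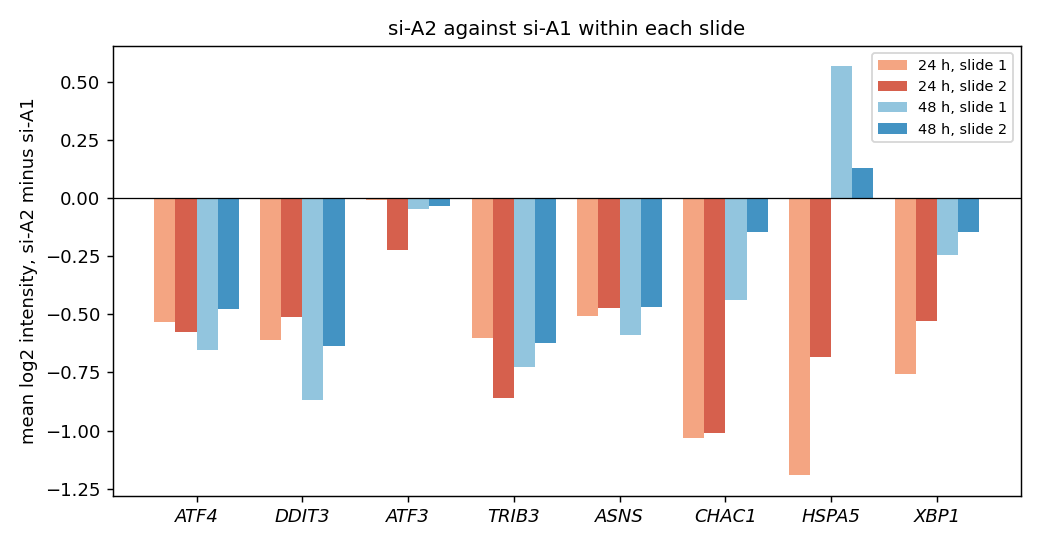
Difference of mean log2 intensity between si-A2 and si-A1 (vertical axis) within each of the 2 slides per time point, for each stress response gene. Bars below 0 mean a lower level in si-A2, as for all genes on all slides other than HSPA5 at 48 h, and each bar rests on 1 or 2 arrays per group.

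The change of each effect from 24 h to 48 h was tested over 30191 genes on features common to both array versions. For si-A1 no member was called, where 0.162% of all genes were. HSPA5 at -1.50 and CHAC1 at -0.62 (SE 0.23, adjusted p = 0.25) had an unadjusted p below 0.05, as had 12.7% of all genes. For si-A2 no member was called, where 0.0464% of all genes were, and none had an unadjusted p below 0.05, against 7.34% of all genes. On the brightest features, the differences for si-A2 ran from -0.30 for ATF3 to 0.30 for XBP1, with confidence intervals that reached as far as -0.93 and 0.93. Over the alternatives, the change kept its sign throughout for 2 of the 8 members with si-A2 and for 6 with si-A1. That of ASNS kept its sign in 25 of 37 alternatives for si-A2 (-0.40 to 0.22) and in 30 of 37 for si-A1 (-0.15 to 0.24). That of ATF3 did so in 35 of 37 for each siRNA, and had a wide range. It ran from -0.46 to 0.94 for si-A2, and from -0.62 to 0.67 for si-A1.

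Across the 23 arrays, after the mean of each slide was subtracted, TRIB3 followed ATF4 with a Pearson r of 0.89 and ASNS followed it with 0.81. The r with ATF4 was 0.75 for XBP1, 0.51 for CHAC1, 0.30 for DDIT3, 0.15 for HSPA5 and -0.17 for ATF3. With the means of the siRNA groups also subtracted, TRIB3 and ASNS were at 0.68 and 0.77. XBP1 was then at 0.60, HSPA5 at 0.13, CHAC1 at -0.10, DDIT3 at -0.26 and ATF3 at -0.51. Not all members described as induced by ATF4 thus followed its mRNA. ATF4 was nearest to TRIB3 among all 17730 genes compared, followed by JDP2 (0.89), a dimerization partner of AP-1 proteins. The genes most like ATF4 were GPX8 (0.92), an ER peroxidase, and GABPB2 (0.91), and those most like DDIT3 were MAP1LC3B (0.93), an autophagosome protein, and BMERB1 (0.93). HSPA5 was followed most closely by MRPS35 (0.86), a mitochondrial ribosomal protein, and MANF (0.85), an ER protein of the unfolded protein response. The nearest genes were AQP5 and GPC3 for ATF3 (0.95 and 0.94), SLK and GTF2A2 for ASNS (both 0.90), CAPN13 and DNTTIP1 for CHAC1 (both 0.86), and SNX14 and PITPNA for XBP1 (both 0.93). These correlations describe arrays that share slides and a joint normalization, and no test was made of them.

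A wider list of 76 genes in 7 role groups places the 8 genes in their pathways. All 76 were measured at 24 h and 73 at 48 h, where EIF2S1 and ATF6B were not above the background threshold and ERO1A had no matching feature. After si-A1 at 24 h, 2 of the 76 were called, both higher, both among the 14 ER chaperones and folding enzymes, where 1.03% of all genes were called. HYOU1, an ER chaperone of the HSP110 type, was at 9.47, 9.44, 9.51 and 9.54 in scramble, 10.09, 10.26, 10.10 and 10.13 in si-A1, and 9.76, 9.80, 9.92 and 9.88 in si-A2. It rose by 0.66 (SE 0.11, adjusted p = 0.0095) after si-A1. MANF was at 8.87, 8.86, 8.84 and 8.88 in scramble, 9.60, 9.56, 9.64 and 9.46 in si-A1, and 9.0, 9.30, 9.23 and 9.23 in si-A2. It rose by 0.70 (SE 0.12, adjusted p = 0.0092) after si-A1. For both genes the 3 groups were fully separate, with si-A2 in between. Both calls lay close to the threshold and were lost whichever of the 12 arrays was left out, with sizes of at least 0.60 and 0.64 and adjusted p-values of at most 0.17 and 0.14 over all alternatives. At 48 h neither gene was called, at 0.23 and -0.06 for si-A1.

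Among the other chaperones at 24 h, CALR (0.70, adjusted p = 0.022) was higher and CANX, the membrane-bound lectin chaperone of the ER, was lower at -0.70 (adjusted p = 0.085), neither past the threshold. The group's median after si-A1 was 0.21, with 11 of 14 genes higher. Over all genes the median was 0.05 and 56.9% were higher. In the groups without a called gene, the largest differences were -1.01 for SLC7A1 (adjusted p = 0.018), -0.88 for EIF2AK2, the double-stranded RNA kinase PKR (adjusted p = 0.011), -0.65 for TNFRSF10B (adjusted p = 0.14), 0.56 for CREB3L1 (adjusted p = 0.54), -0.46 for EDEM1 (adjusted p = 0.54) and -0.39 for WARS1 (adjusted p = 0.20).

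After si-A1 at 48 h, 5 of the 73 genes were called, 1 higher and 4 lower, a share near the 5.87% of all genes. CANX was at 10.21, 10.02, 11.04 and 10.34 in scramble, 8.93, 9.02, 9.35 and 9.39 in si-A1, and 10.21, 10.78 and 10.72 in si-A2. It fell by 1.23 on the log2 scale (SE 0.14, adjusted p = 0.00080), with all si-A1 arrays below the others, and its second feature gave -0.97 (SE 0.29, adjusted p = 0.052). MTHFD2, a mitochondrial enzyme of one-carbon metabolism, was at 9.33, 9.40, 8.93 and 9.30 in scramble, 8.48, 8.40, 7.80 and 7.94 in si-A1, and 8.96, 8.46 and 8.62 in si-A2, and it fell by 1.09 (SE 0.11, adjusted p = 0.00045). SLC7A1, a transporter of arginine and lysine, was at 8.02, 8.13, 8.44 and 8.10 in scramble, 7.01, 7.04, 7.22 and 7.34 in si-A1, and 7.65, 7.93 and 7.81 in si-A2, and it fell by 1.02 (SE 0.10, adjusted p = 0.00024). The calls of these 3 genes held whichever array was left out.

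SYVN1, the ubiquitin ligase of ER-associated degradation, fell by 0.57 (SE 0.10, adjusted p = 0.0067), a call that held in 1 of the 11 fits with an array left out and was lost with the replicate block (adjusted p = 0.015). SARS1, the seryl-tRNA synthetase, rose by 0.55 (SE 0.10, adjusted p = 0.0092, and 0.019 with the replicate block) on its brighter feature, while its other feature gave -0.73 (SE 0.11, adjusted p = 0.0028), so that the direction of the gene is uncertain. The 8 genes of ER-associated degradation had a median of -0.37 after si-A1 at 48 h. In the groups without a call, the largest differences were -0.66 for STC2 (adjusted p = 0.11) and 0.37 for CREB3 (adjusted p = 0.012). EIF2AK3, the ER kinase PERK, was well above background on only 2 of 4 scramble and 2 of 4 si-A1 arrays, and its difference is not given.

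**Figure D4:**
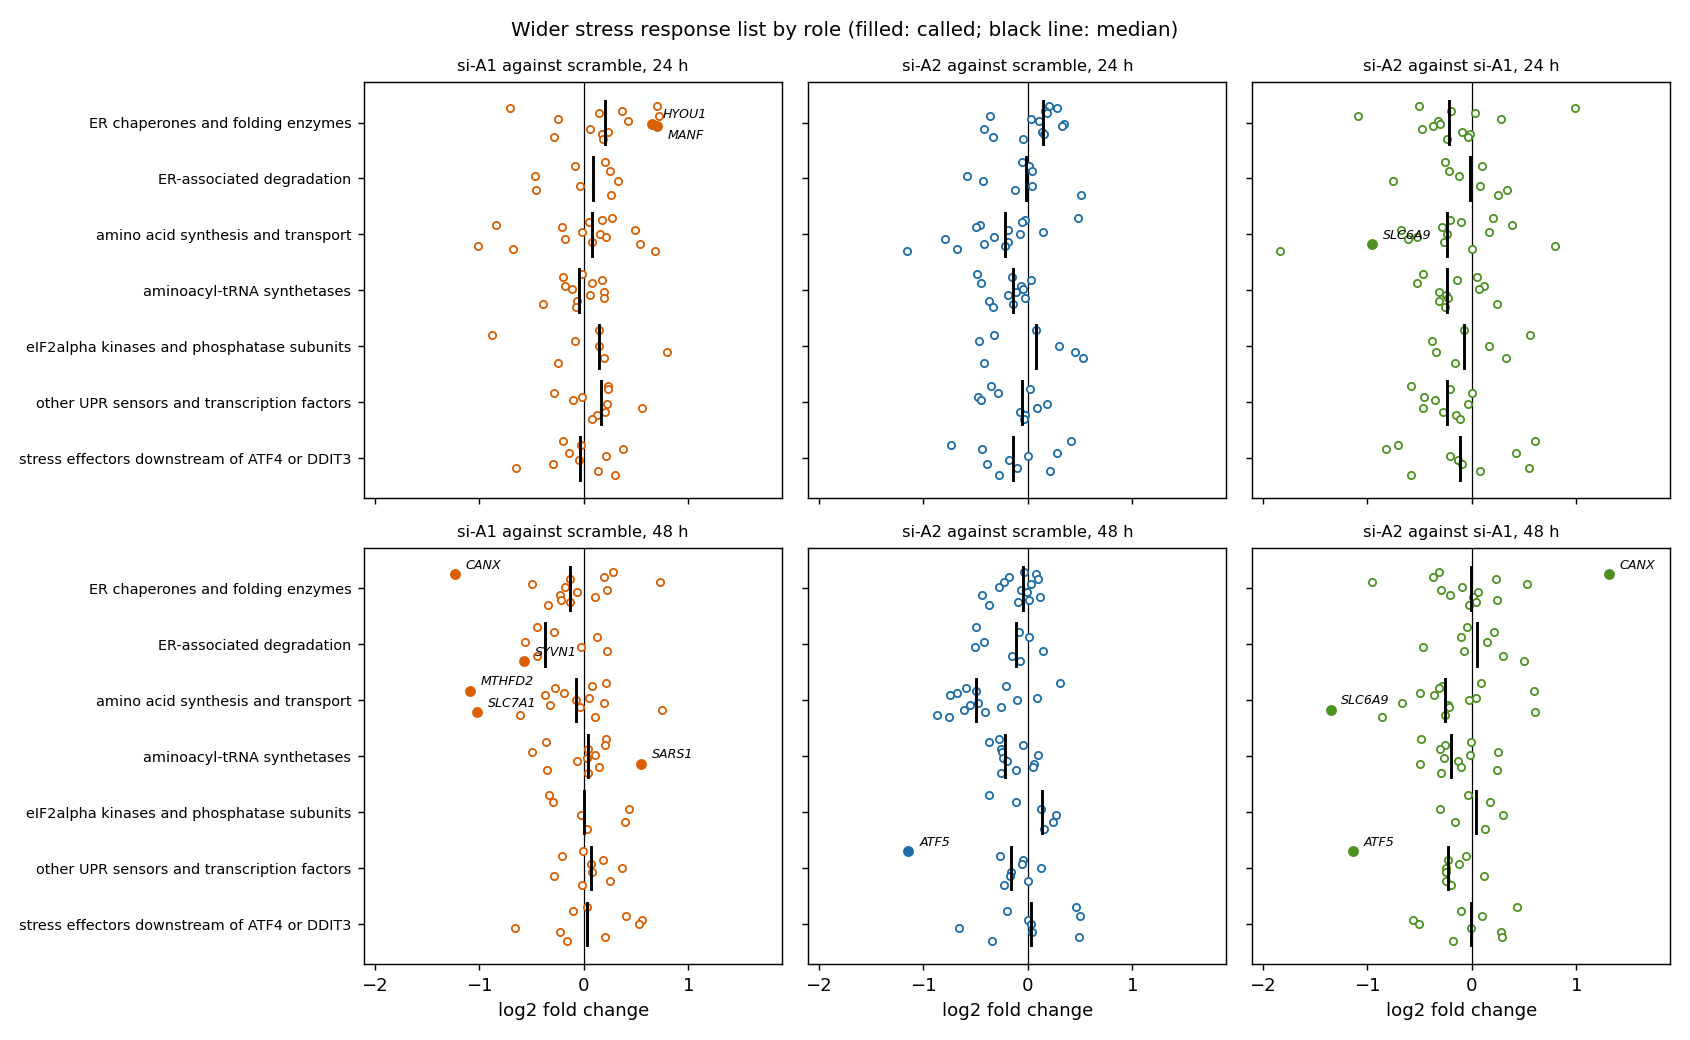
Log2 fold change (horizontal axis) of the 76 genes of the wider list in 7 role groups, by comparison (columns) and time point (rows). Filled points are called genes, with their names, open points were not called and include features near background, and black lines are the medians of the groups. The amino acid genes after si-A2 at 48 h (bottom centre) have their median at -0.49.

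After si-A2 at 24 h none of the 76 genes was called, where 0.902% of all genes were. An unadjusted p below 0.05 was found for 17 of the 76, against 11.1% of all genes. Lower levels than in scramble were found for 13 of 15 genes of amino acid synthesis and transport, with a median of -0.22, and for 11 of 12 aminoacyl-tRNA synthetases, with a median of -0.14. Over all genes 43.1% were lower. SLC7A5, the large neutral amino acid transporter, was well above background on 1 of 4 scramble and 0 of 4 si-A2 arrays. Its difference is not given, though SLC7A5 is among the 13 counted as lower. Large differences in the other role groups were -0.73 for ERO1A (adjusted p = 0.22), -0.58 for EDEM1 (adjusted p = 0.51), 0.53 for PPP1R15A (adjusted p = 0.25), -0.49 for AARS1 (adjusted p = 0.14), -0.47 for CEBPB (adjusted p = 0.31) and -0.42 for P4HB (adjusted p = 0.26).

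After si-A2 at 48 h, 1 of the 73 genes was called, where 0.441% of all genes were. ATF5, a transcription factor translated under the same control as ATF4, was at 7.33, 7.12, 6.87 and 7.16 in scramble, 7.05, 7.18, 7.27 and 6.94 in si-A1, and 6.05, 5.78 and 6.05 in si-A2. It fell by 1.14 against scramble (SE 0.13, adjusted p = 0.0060), with the si-A2 arrays far below all others, though the call did not hold when any single array was left out, nor with the replicate block (-1.15, adjusted p = 0.022). Of the 15 amino acid genes, 13 were lower, where 48.2% of all genes were, and the median was -0.49 against 0.01 over all genes. An unadjusted p below 0.05 was found for 11 of the 15, against 17.4% of all genes, without any of them being called. The serine synthesis enzyme PHGDH, at -0.68 (SE 0.10, adjusted p = 0.015), was the nearest to the threshold, and is named here after its value was seen. The largest differences in the groups without a call were -0.87 for SLC7A11, the cystine importer (adjusted p = 0.15), -0.66 for STC2 (adjusted p = 0.24), -0.50 for HERPUD1 (adjusted p = 0.045), -0.44 for P4HB (adjusted p = 0.27), -0.37 for CARS1 (adjusted p = 0.059) and -0.37 for EIF2AK1 (adjusted p = 0.35).

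Between the knockdowns, SLC6A9, a glycine transporter and ATF4 target, was lower in si-A2 at both time points on its brighter feature. It was at 7.72, 7.44, 7.55 and 7.36 in si-A1 and 6.66, 6.51, 6.39 and 6.70 in si-A2 at 24 h, and at 6.81, 6.84, 6.84 and 6.64 in si-A1 and 5.32, 5.31 and 5.57 in si-A2 at 48 h, with scramble at 6.89 to 7.19 and 5.77 to 6.57. On that feature the groups of the 2 knockdowns did not overlap at either time. The differences were -0.95 (SE 0.13, adjusted p = 0.0080) and -1.35 (SE 0.17, adjusted p = 0.0043), and the second feature gave -0.72 (adjusted p = 0.10) and 0.30 (adjusted p = 0.69). For si-A2 against scramble at 48 h, the brighter feature gave -0.61 (adjusted p = 0.12) and the second 0.96 (adjusted p = 0.15). The direction of SLC6A9 at 48 h is therefore uncertain. When arrays were left out in turn, the calls held in 1 of 12 fits at 24 h and 4 of 11 at 48 h, where the call was lost with the replicate block (adjusted p = 0.020). At 48 h, ATF5 was lower in si-A2 by -1.14 (SE 0.13, adjusted p = 0.0032, 6 of 11 fits) and CANX was higher by 1.31 (SE 0.16, adjusted p = 0.0034, 4 of 11 fits). With the replicate block their adjusted p was 0.015 and 0.012, and neither was called.

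Over the wider list at 24 h, 52 of 76 genes were lower in si-A2 than in si-A1, with a median of -0.20 against -0.01 over all genes. For 25 of the 76, or 32.9%, every si-A2 array lay below every si-A1 array, as for 4.73% of all genes, and for 9, or 11.8%, every si-A2 array lay above, as for 5.26% of all genes. Large differences in the groups without a called gene were -1.08 for DNAJB9 (adjusted p = 0.12), -0.76 for HERPUD1 (adjusted p = 0.22), -0.58 for ATF5 (adjusted p = 0.14), 0.56 for EIF2AK2 (adjusted p = 0.13) and -0.52 for GARS1 (adjusted p = 0.12). SLC7A5 and FGF21 read near background on all 4 si-A2 arrays, and their differences are not given, though both are among the 25. At 48 h, 48 of 73 genes were lower in si-A2 than in si-A1, as were 55.8% of all genes. The median was -0.10 against -0.04 over all genes. Every si-A2 array lay below every si-A1 array for 15 of the 73, or 20.5%, against 6.66% of all genes, and above for 8, or 10.96%, against 7.24%. Large differences there were -0.56 for NUPR1 (adjusted p = 0.099), 0.50 for SYVN1 (adjusted p = 0.037) and -0.49 for SARS1 (adjusted p = 0.045). The other SARS1 feature gave 0.36 (SE 0.12, adjusted p = 0.13), so that the direction of SARS1 is uncertain here too.

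None of the 74 genes of the wider list tested for a change of effect between the time points was called for either siRNA. An unadjusted p below 0.05 was found for 10 with si-A1 and 3 with si-A2, against 12.7% and 7.34% of all genes. For si-A1, 12 of the 14 chaperones had a lower effect at 48 h than at 24 h, with a median of -0.32 against -0.01 over all genes. The share of all genes with a lower effect was not counted. MANF was the largest of the chaperones at -0.75 (SE 0.16, adjusted p = 0.040). The largest in the other groups were -0.87 for PSAT1, -0.82 for SYVN1, 0.63 for EIF2AK2, 0.62 for SESN2, -0.51 for CREB3L1 and 0.27 for SARS1, with adjusted p-values from 0.085 to 0.65. The features of SARS1 disagreed at 48 h, so that its change is uncertain. For si-A2, leaving out EIF2AK3 and FGF21, which were not well above background in whole groups, they were -0.79 for ATF5, -0.55 for SYVN1, -0.51 for CTH, which was well above background on 2 of 3 si-A2 arrays at 48 h, 0.47 for TARS1 and -0.40 for HYOU1, with adjusted p-values from 0.26 to 0.94.

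**Figure D5:**
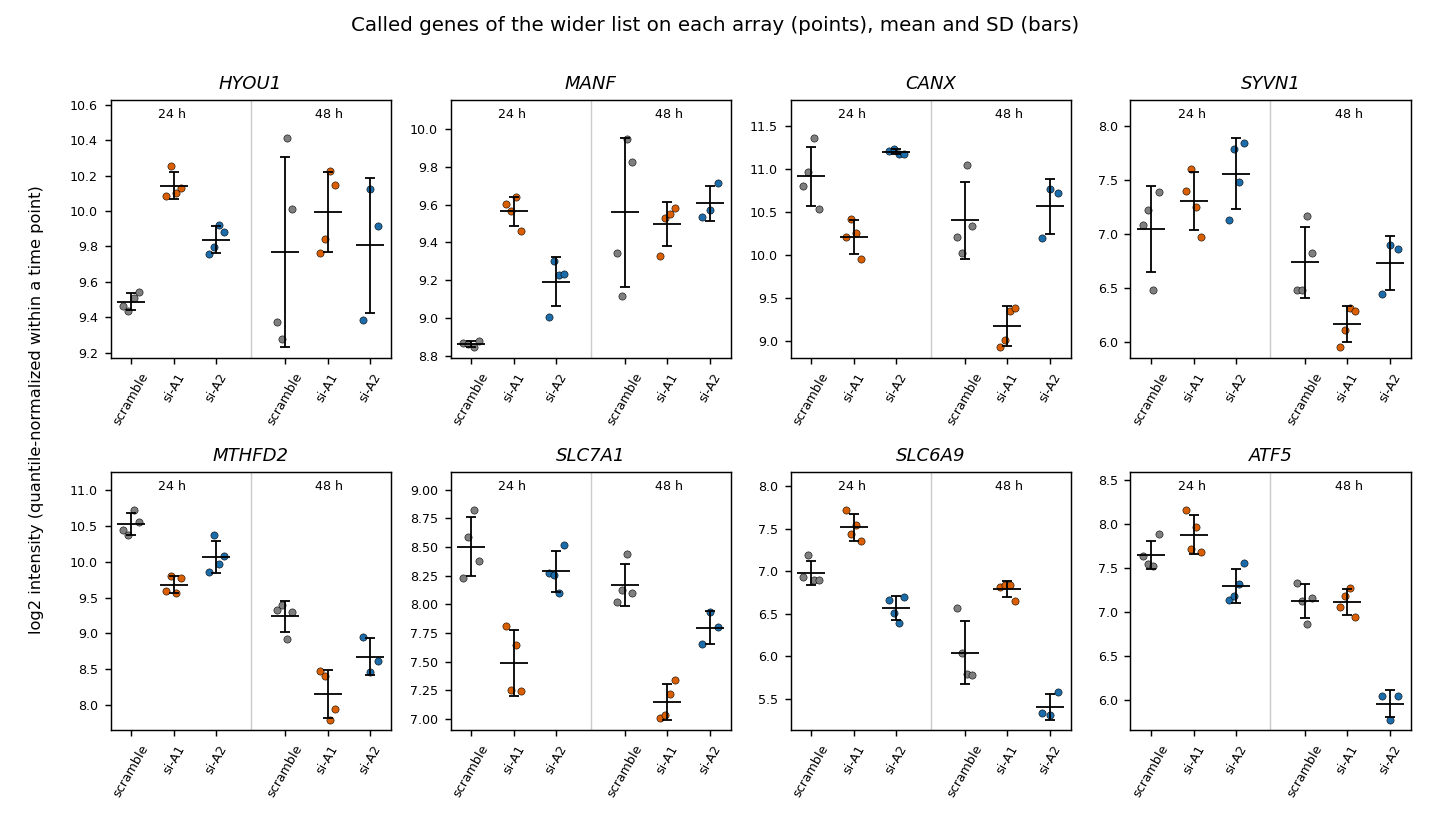
Log2 intensity (vertical axis, own scale in each panel) on each array of 8 of the 9 genes of the wider list that were called in any comparison, by siRNA and time point. SARS1, whose features disagree, is left out, and SLC6A9, whose features disagree at 48 h, is shown by its brighter feature. Points are arrays, horizontal lines are means and bars are SDs, and CANX in si-A1 at 48 h lies between 8.93 and 9.39, below all other groups at that time.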

How the data were processed

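RNA of LNCaP cells, labelled with Cy3, was hybridised to 24 Agilent arrays in 1 colour. Per the labels, the authors scanned them with Feature Extraction 11.5.1.1 and used R 3.4.3 and limma 3.34.8 (hg38). They deposited the processed signal, an intensity after background subtraction that is not normalized between arrays, with median intensities of spots and local background, and 1 table of log2 values per time point. The deposited log2 values are the quantile-normalized processed intensities over all spots.

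Samples were grouped by their titles. The log2 processed intensity was quantile-normalized within a time point, control and outlier-flagged spots were left out, and repeated spots were averaged. Probes entered the test when at least 3 arrays read above a threshold set 3 SDs over the mean of the 308 negative controls, and the brightest probe stood for a gene. Probes were named by RefSeq accession (GRCh38.p14), which named 57.4% at 24 h and 53.4% at 48 h. The 3 siRNA groups entered 1 fit with the slide as a term (limma 3.58.1 in R 4.3.3, with Benjamini-Hochberg adjustment over all genes). The fit was also run on simulated data with a slide shift. These held no deviation shared by replicate number, so the run cannot tell how such sharing bears on the 48 h calls. The dim 48 h array was left out of the normalization too. The number of arrays limits the precision.

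Deviations of same-numbered arrays from their group means correlated at -0.15 to 0.15 at 24 h and at 0.19 to 0.37 at 48 h, where arrays of different number on the same slide correlated at 0.11 to 0.31. With the mean of each siRNA on each slide removed, the 48 h same-number values were 0.025 to 0.088, all above 0. Of the 11 arrays at 48 h, 9 deviated most like an array of their own number in another siRNA group, against 3 of 12 at 24 h. The slide was kept in the fit, and the replicate number as a block was an alternative, given beside the 48 h calls it removed.

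The 8 members, the 76 genes of the wider list and the markers were chosen with earlier results of these data known. The text names all members, wider list genes that were called, the largest difference in each role group without a call (none is given for features near background), and for each member the 2 genes of highest correlation. Alternatives were other scalings, background corrections (on the deposited median signals), filters, blocks, probe rules and thresholds, the authors' log2 values, and each array left out.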

Additional observations from a re-analysis of the deposited data

Results flagged for a closer look

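Among 40 groups of 4 arrays of the 8 genes, 4 held an array whose gap to its neighbour was large against the range of the group, where chance gives about 1 in 20. These were ATF4 in scramble replicate 3 at 24 h at 11.10, with the others at 10.78 to 10.82, and ATF3 in si-A1 replicate 4 at 24 h at 9.83, with the others at 9.46 to 9.50. The others were ATF3 in scramble replicate 1 at 48 h at 10.21, with the rest at 9.40 to 9.51, and ASNS in si-A1 replicate 4 at 24 h at 11.28, with the rest at 11.06 to 11.08.

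The effect of si-A1 on HSPA5 differed between 48 h and 24 h by -1.50 (adjusted p = 0.033 by limma), which is below 0.05 but not below the threshold of 0.01 used for calls.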

How the results depend on the processing

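Members called numbered 1 of 8 for si-A1 against scramble at 48 h (DDIT3) and 0 in the other 7 comparisons. Of 1820 differences of the 8 genes under alternatives, 1778 kept their sign. For si-A1 at 48 h the count was 0 with only the groups compared, with the replicate block or with the dim array. At 24 h the replicate block changed no member's call, and it is given only as a check, since the numbers shared no deviation there. Leaving out each array gave 0 to 1 for si-A1 at 24 h, si-A1 at 48 h, si-A2 against si-A1 at 24 h and the si-A1 effect at 48 h minus 24 h, and 0 to 0 elsewhere. At an adjusted p below 0.05 the counts were 1 (HSPA5) for si-A1 at 24 h and its change to 48 h, 1 (ATF4) for si-A2 at 24 h and 2 (CHAC1, TRIB3) for si-A2 against si-A1 at 24 h. Over all genes these were 763 of 36605 and 227 of 30191, 618 of 36605 and 426 of 36605. With no background correction, members called were 1 (ATF4) for si-A2 at 24 h, where 421 of 35033 genes were. They were 3 (ATF4, CHAC1, TRIB3) for si-A2 against si-A1 at 24 h, where 311 of 35033 were. For si-A2 at 48 h there was 1 (ASNS), where 601 of 35764 were. With normexp the members called at 24 h were the same, where 422 and 312 of 35278 genes were called. SARS1 after si-A1 at 48 h was -0.09 by the median over its probes.

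Over all genes, calls for si-A1 at 48 h ranged from 23 (with the dim array) to 4252 (adjusted p below 0.05) around 2199. With the replicate block calls were 249 for si-A1, 237 for si-A2 and 30 for si-A2 against si-A1 at 24 h, 1426, 0 and 208 for these at 48 h, and 32 and 16 for the changes of si-A1 and si-A2 between time points. Called genes of the wider list for si-A1 at 48 h were then 3 (CANX, MTHFD2, SLC7A1) in place of 5. The ranges were 136 to 763 around 377 for si-A1 and 152 to 618 around 330 for si-A2 at 24 h, 0 to 930 around 165 for si-A2 at 48 h, 17 to 426 around 113 and 0 to 1550 around 516 for si-A2 against si-A1, and 0 to 227 around 49 and 0 to 31 around 14 for the changes between time points. The causes were not tested. Dim features such as HSPA5 are the least certain.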
